A study of Mus musculus with 8 samples.

Results

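The genes described here are those of replication licensing: the subunits of the MCM helicase, Mcm2, Mcm3, Mcm4, Mcm5, Mcm6 and Mcm7, the loading factors Cdc6 and Cdt1, the inhibitor Gmnn (geminin), and Mcm10, which acts when the helicase starts to unwind. They were chosen by name, as the rows of the deposited table of raw counts with these symbols, and make up 10 of its 26667 rows. All 10 passed the filter on low counts. Their levels were measured by RNA-seq in undifferentiated pleomorphic sarcoma (UPS), a soft tissue tumour, from 4 KP and 4 KPH2 mice, and the question the comparison addresses is whether tumours that lack HIF-2α, the hypoxia-inducible factor encoded by Epas1, differ in these transcripts.

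KP mice carry Trp53 fl/fl, which loses p53 where Cre acts, together with a further allele that Cre switches on and that both groups share. KPH2 mice carry both of these alleles and, in addition, Epas1 fl/fl. Tumours of both groups were started by adenovirus expressing Cre, injected into the muscle of the hind limb, on a mixed 129/C57BL/6 background, in mice of both sexes from the eighth week of age. Tumours were taken either at the seventh week after injection or at the largest size permitted, and the labels do not say which applies to a given tumour. Tumour sections, fixed in paraformaldehyde and embedded in paraffin, gave 1 library per tumour. Stromal, immune and muscle cells of the host that Cre did not reach keep Epas1 and are part of every library. In such bulk samples, fewer cells of a type and less RNA per cell cannot be told apart. The tumours are called KP 5 to KP 8 and KPH2 1 to KPH2 4, after the numbers in their labels. KPH2 1 is the knockout tumour absent from the authors' table of normalized values for 7 tumours, and is given apart from KPH2 2 to KPH2 4 in the comparisons between groups, whereas ranges of library content and means over 8 tumours include it.

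Licensing is the step that makes a stretch of chromosome ready to be copied, and restricts copying to a single round per cell cycle. In G1 the origin recognition complex binds DNA and, with CDC6 and CDT1, loads rings of MCM2 to MCM7 around it. At the start of S phase, kinases together with CDC45, the GINS complex and MCM10 turn the loaded rings into working helicases. Geminin then binds CDT1, and ubiquitin ligases destroy it, so that no new rings are loaded until the next G1. Transcription of these genes peaks near the G1/S boundary under E2F factors, and MCM proteins are widely used as markers of cycling tumour cells.

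Sequence before start sites of these genes is shown because the letters bound by E2F factors are what most of them share. RefSeq promoter windows on GRCm38.p6, from 250 bases before to 50 bases after a start site, were given for 8 of the 10 genes. Mcm4 and Gmnn had no entry. The letters TTTCCCGC, TTTCGCGC, TTTGCCGC and TTTGGCGC, on either strand, occurred in the windows of 6 of these 8 genes, Mcm3, Mcm5, Mcm6, Mcm7, Cdc6 and Cdt1, and in those of 2.6% of all 27025 genes. Mcm2 and Mcm10 held none of the letters. Stretches of 3 genes are given here 5′ to 3′ on the strand of the gene, with E2F letters in capitals, and with annotated exons left out. They are Mcm5 (chr8:75109339-75109467, plus strand), Mcm6 (chr1:128359706-128359875, minus strand) and Cdc6 (chr11:98907982-98908150, plus strand).
Mcm5: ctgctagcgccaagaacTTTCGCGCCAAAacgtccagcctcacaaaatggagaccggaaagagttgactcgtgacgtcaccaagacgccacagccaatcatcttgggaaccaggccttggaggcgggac
Mcm6: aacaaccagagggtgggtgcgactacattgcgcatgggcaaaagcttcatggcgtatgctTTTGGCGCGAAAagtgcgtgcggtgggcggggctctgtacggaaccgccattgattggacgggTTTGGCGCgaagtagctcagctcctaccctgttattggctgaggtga
Cdc6: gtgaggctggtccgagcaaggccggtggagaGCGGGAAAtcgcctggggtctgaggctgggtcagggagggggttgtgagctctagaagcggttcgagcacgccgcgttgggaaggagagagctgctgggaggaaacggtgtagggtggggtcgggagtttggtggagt

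In the Mcm5 stretch the capitals hold 2 overlapping matches, 1 on each strand. The Mcm6 stretch holds 3, of which 2 overlap on opposite strands and the other lies nearer the start site. Cdc6 holds 1, read on the opposite strand. Its stretch lies before the RefSeq start site of the window and after the first exon of longer annotated transcripts. The outermost RefSeq start of Cdc6 is at 98907709, so this stretch is within the gene and not upstream of it. The matches of Mcm3 and Cdt1 lie after the start site, and Mcm7 has 1 match before and 1 after a start site, both within annotated exons, so these are not shown. CCAAT, the letters of the NF-Y box, occurred on either strand in 6 of the 8 genes, Mcm2, Mcm3, Mcm5, Mcm6, Mcm7 and Mcm10, against 41.1% of all genes. The core of the hypoxia response element, ACGTG or GCGTG, occurred in 5 of 8, Mcm2, Mcm6, Mcm7, Cdc6 and Cdt1, against 46.7% of all genes. The E-box CACGTG, which contains ACGTG, occurred in 0 of 8 against 8.09%, and TTTGAA, the letters of the CHR element of genes of G2 and M phase, in 1 of 8 (Mcm2) against 20.2%. These are matches of letters in a window, and no binding was measured.

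The libraries held 6463221 to 13155510 counts in KP and 8517468 to 13080056 in KPH2. The members were counted at 66 (Gmnn in KP 7) to 2409 reads (Mcm6 in KPH2 1) per tumour. Levels are given as CPM, counts divided by a library size that TMM scales to a common composition and brought to a fixed total. Epas1 was at 59.1, 83.0, 86.7 and 83.9 CPM in KP 5 to KP 8, at 53.3, 37.7 and 42.4 CPM in KPH2 2 to KPH2 4, and at 32.6 CPM in KPH2 1. Every KPH2 tumour was thus below every KP tumour, with a log2 fold change of −0.81 (SE 0.19), for which edgeR, by its quasi-likelihood test over 7 tumours, gave an adjusted p of 0.0742. Counts over the whole gene do not separate the deleted exons. Some measures of library content differed between the groups over the whole series. The ribosomal precursor Rn45s took 1.08 to 2.79% of the counts in KP and 3.58 to 9.83% in KPH2, and Lars2, a further abundant transcript, took 0.462 to 1.05% and 1.18 to 4.68%. Their part in the results below was examined only by leaving both genes out together.

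Compared per kilobase of exon, the helicase subunits fell into a higher and a lower set. Mcm4 had the highest mean, 32.2 ± 4.63 CPM per kb (SD, n = 8 tumours). Mcm6 followed at 29.2 ± 8.12, Mcm7 at 27.6 ± 5.52 and Mcm3 at 26.3 ± 3.60 CPM per kb. Neighbours among these 4 changed places from tumour to tumour: Mcm4 was above Mcm6 in 6 of 8 tumours, Mcm6 above Mcm7 in 5 and Mcm7 above Mcm3 in 4. Mcm2, at 16.2 ± 3.22 CPM per kb, and Mcm5, at 15.9 ± 3.17, formed the lower set. Mcm3 exceeded Mcm2 in 8 of 8 tumours, whereas Mcm2 exceeded Mcm5 in 3 of 8. Mcm5 was above Gmnn, the next gene in the order, in 8 of 8. The proteins are used in equal numbers in the ring, but their transcripts were thus not at equal levels.

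On average, the loading factors and Mcm10 were below the subunits, though Gmnn was above Mcm2 in KP 6 and KPH2 1, and Cdt1 above Mcm5 in KP 7. Gmnn, which encodes the CDT1 inhibitor, was at 13.4 ± 2.82 CPM per kb and Cdt1 at 11.8 ± 3.67, and Gmnn exceeded Cdt1 in 7 of 8 tumours, the exception being KP 7. This order turned on the length taken for Gmnn, 963 bases in the transcript with a RefSeq accession: with the 1189 bases of all basic GENCODE transcripts, Gmnn was at 10.8 ± 2.28 CPM per kb and above Cdt1 in 3 of 8 tumours. Mcm10 was at 5.46 ± 1.16 CPM per kb and Cdc6, the ATPase that recruits the rings to the origin recognition complex, was lowest at 4.42 ± 0.873. Each of the last steps in this order, from Cdt1 to Mcm10 and from Mcm10 to Cdc6, held in 8 of 8 tumours.

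**Figure D1:**
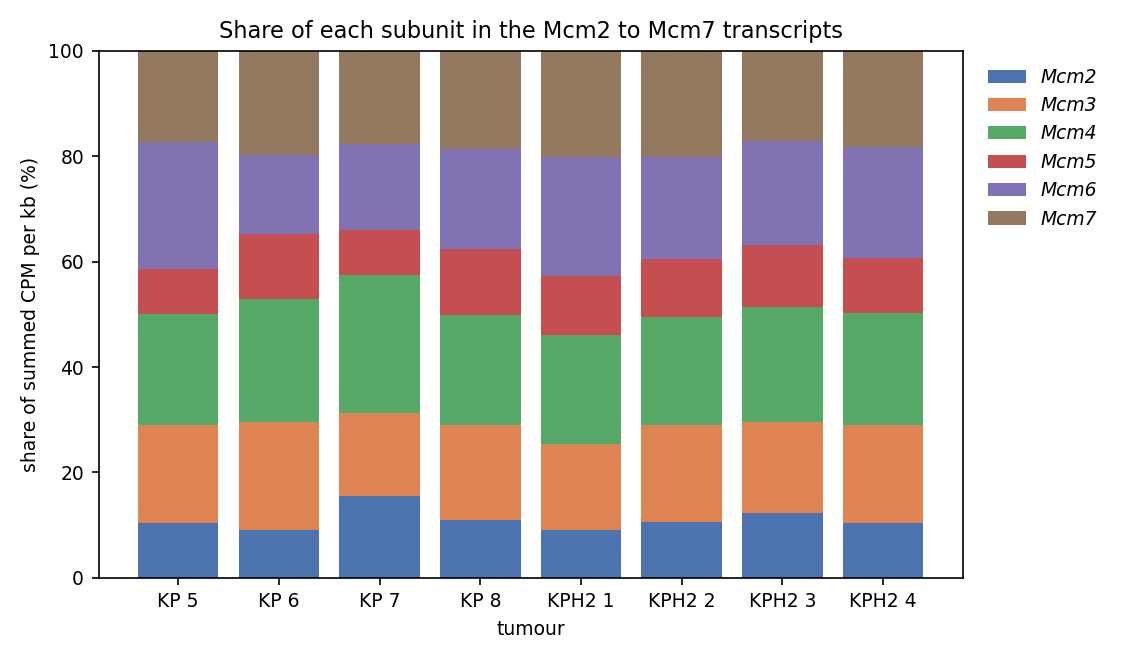
Stacked bars give the share of each subunit, in percent, of the summed CPM per kb of Mcm2 to Mcm7 in each of the 8 tumours. Mcm4 held 20.4 to 26.2% and Mcm5 8.59 to 12.5%, and the mean shares of KP 5 to KP 8 and KPH2 2 to KPH2 4 differed by less than the SD among the KP tumours for each subunit.

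As a share of the summed subunit transcripts per kb, each subunit kept a similar part in both groups. In percentage points, Mcm7 varied least, from 17.2% in KPH2 3 to 20.2% in KPH2 1, and Mcm6 most, from 14.95% in KP 6 to 24.0% in KP 5. Mcm2 held 8.996% in KP 6 and 15.6% in KP 7. The mean share of Mcm5 was 10.5 ± 2.17% (SD, n = 4) among KP tumours and 11.1 ± 0.588% (SD, n = 3) in KPH2 2 to KPH2 4. For Mcm3 these means were 18.2 ± 2.01% and 18.1 ± 0.667%. For Mcm2 to Mcm6 the SD of the share was larger among the KP tumours than among KPH2 2 to KPH2 4, while for Mcm7 it was 1.11% in KP and 1.48% in KPH2.

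Between genotypes, most licensing transcripts had somewhat higher levels in KPH2 tumours, and none passed the adjusted p. Over KP 5 to KP 8 and KPH2 2 to KPH2 4, 8 of 10 genes had a positive log2 fold change, against 48% of all 14867 genes tested. None of these 7-tumour estimates exceeded 0.56, that of Cdt1. Their median was 0.25, and that of all genes tested −0.018. The number past an adjusted p of 0.05 was 0 of 10, against 1.96% of all genes (292). Adjusted p-values of the 10, by edgeR and the method of Benjamini and Hochberg over all genes, ranged from 0.260 to 0.920. At an unadjusted p under 0.05, 2 of 10, Mcm5 and Cdt1, were higher in KPH2, against 8.5% of all genes, and DESeq2 gave the same number, 2, at that threshold and 0 past its adjusted p. This count was 0 without KPH2 2 or KPH2 4, 1 without KP 5 (Mcm6), KP 6 or KP 8 (Mcm5) or KPH2 3 (Cdt1), and 2 without KP 7 (Mcm2 and Cdt1). With upper-quartile normalization, no filter on low counts, or Rn45s and Lars2 left out it was 1 (Cdt1), and with the muscle covariate 0. The 8.5% belongs to the edgeR fit over 7 tumours, and this share was not computed for these alternatives. In either direction, genes at this threshold were 2640 of 14867 over 7 tumours and 2060 of 15187 without KPH2 2. They were 2879 of 14554 without KP 5 and 964 of 14867 with the muscle covariate. For Mcm5 and Mcm7, every KPH2 tumour was above every KP tumour, which makes 2 of 10 against 8.73% of all genes. Both counts thus rest on a pair of genes.

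**Figure D2:**
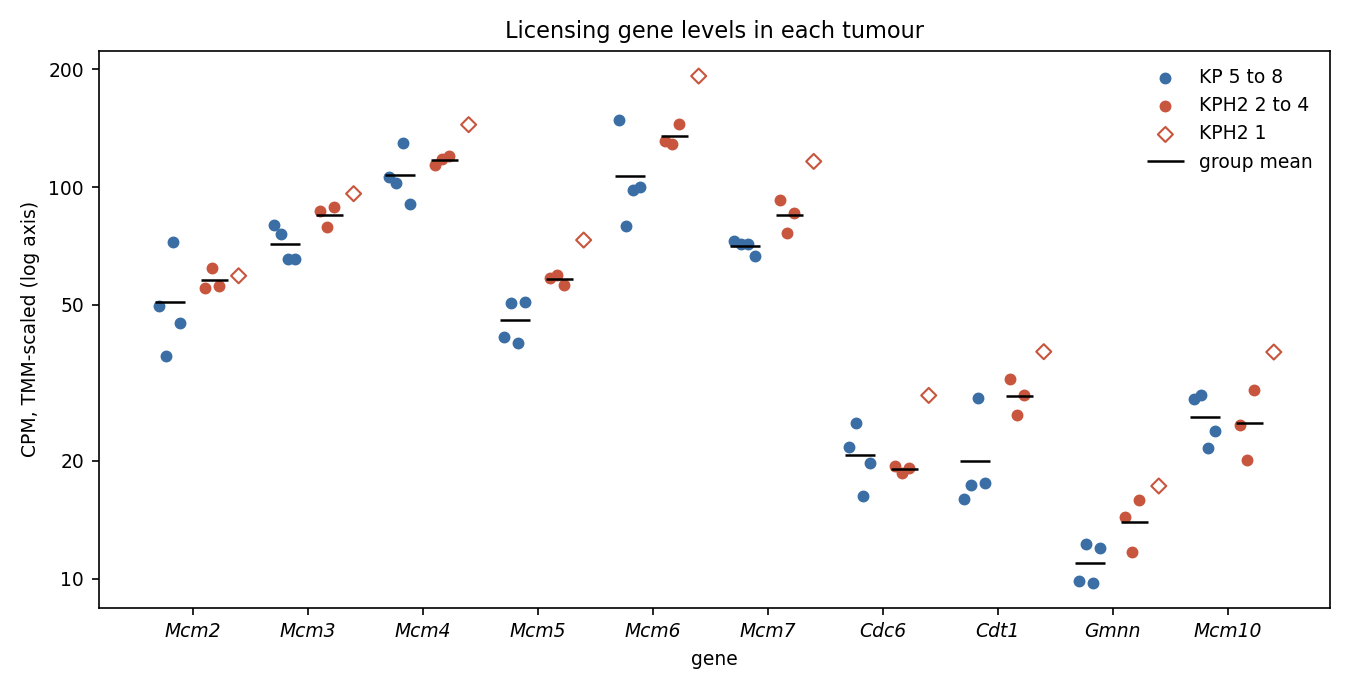
Points give the TMM-scaled CPM (log axis) of each gene in KP 5 to KP 8 (blue) and KPH2 2 to KPH2 4 (red), with the group mean as a bar and KPH2 1 as an open diamond. The red points lie above all blue points for Mcm5 and Mcm7, and the open diamond is the highest point for every gene except Mcm2.

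Mcm5, which forms the gate at which the ring opens together with MCM2, was at 41.4, 50.6, 40.0 and 51.0 CPM in KP 5 to KP 8 and at 58.6, 59.5 and 56.4 CPM in KPH2 2 to KPH2 4. All 3 KPH2 tumours were above the KP range, and KPH2 1 was higher again at 73.3 CPM. The mean was 45.7 ± 5.85 CPM (SD, n = 4) among KP tumours and 58.2 ± 1.63 CPM (SD, n = 3) in KPH2, 1.27-fold higher. Fitted by edgeR, the log2 fold change was 0.34 (95% interval 0.0066 to 0.68), with an adjusted p of 0.273 in edgeR's test. A 2-sided exact permutation test of mean log2 CPM gave p = 0.0857, where the smallest value that the 35 splits allow is 0.0286. With KPH2 1 the log2 fold change was 0.44, the adjusted p in edgeR 0.242 and the exact permutation p 0.0286, the smallest that 70 splits can give.

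Mcm7 lies on chromosome 5 (138164583 to 138172111, GRCm38.p6). It was at 72.9, 71.6, 71.8 and 66.7 CPM in KP and at 92.7, 76.5 and 85.9 CPM in KPH2 2 to KPH2 4. The KP tumours lay close together, at 70.8 ± 2.75 CPM (SD, n = 4), with all KPH2 tumours above them at 85.1 ± 8.15 CPM (SD, n = 3) and KPH2 1 at 116 CPM. The log2 fold change was 0.26 (95% interval −0.033 to 0.56; adjusted p = 0.337 in edgeR), and the 2-sided exact permutation test gave p = 0.0286, the smallest possible. With the exons of all GENCODE transcripts pooled, those of Mcm7 overlap Cops6 and Ap4m1 on the opposite strand, and Mir25 and Mir93 on the same strand. Whether the RefSeq exons used for counting overlap them was not examined. Whether counting used the strand is not given in the sources used here, so reads in the overlaps may be assigned differently. Ap4m1, which starts 420 bases away in the opposite direction, had a log2 fold change of 0.11 (adjusted p = 0.809 in edgeR).

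Mcm6 varied 1.86-fold among the KP tumours alone. It was at 148, 79.8, 98.3 and 99.97 CPM in KP 5 to KP 8 and at 131, 129 and 145 CPM in KPH2 2 to KPH2 4. KP 5 was above all 3 KPH2 tumours and the other KP tumours were below them, so the groups overlapped through 1 tumour. KPH2 1 was highest at 192 CPM. The log2 fold change of 0.34 had a 95% interval of −0.14 to 0.82 and an adjusted p of 0.452 in edgeR. Without KP 5 it was 0.55, with an adjusted p of 0.0963, and without KP 6 it was 0.22, with an adjusted p of 0.664.

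The remaining subunits showed smaller differences. Mcm3 was at 80.0, 76.0, 65.4 and 65.4 CPM in KP and at 87.0, 79.0 and 88.9 CPM in KPH2 2 to KPH2 4, with 96.3 CPM in KPH2 1. Only KPH2 3 fell within the KP range, and the log2 fold change was 0.24 (95% interval −0.075 to 0.56). Mcm4, at 106, 103, 129.5 and 90.5 CPM in KP and 114, 118 and 119.8 CPM in KPH2 2 to KPH2 4, had its highest level of these 7 tumours in KP 7, with 144 CPM in KPH2 1. Its log2 fold change was 0.13 (95% interval −0.22 to 0.47), with 0.050 without KP 8 and 0.23 without KP 7. Prkdc, the kinase gene that starts 466 bases away in the opposite direction, had one of 0.013. Mcm2 was at 49.6, 37.0, 72.4 and 44.9 CPM in KP and at 55.4, 62.0 and 55.9 CPM in KPH2 2 to KPH2 4, with 59.4 CPM in KPH2 1. KP 7 was the highest of all 8 tumours for Mcm2 and the other KP tumours were below every KPH2 tumour. Its log2 fold change was 0.18 (95% interval −0.33 to 0.69), which was 0.054 without KP 6, 0.12 without KP 8 and 0.39 without KP 7.

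Cdt1, the loader that cells destroy after each start of S phase, had the largest fitted difference of the 10 genes. It was at 15.9, 17.4, 29.0 and 17.6 CPM in KP 5 to KP 8 and at 32.3, 26.2 and 29.5 CPM in KPH2 2 to KPH2 4. KP 7 lay within the KPH2 range and stood apart from the other KP tumours, and KPH2 1 was highest at 38.0 CPM. Mean levels were 19.97 ± 6.07 CPM (SD, n = 4) and 29.3 ± 3.05 CPM (SD, n = 3), 1.47-fold higher in KPH2. The log2 fold change was 0.56 (95% interval 0.026 to 1.09; adjusted p = 0.260 in edgeR), and the 2-sided exact permutation p was 0.0857. Adding KPH2 1 gave a log2 fold change of 0.66 (adjusted p = 0.239 in edgeR), and leaving out KP 7 gave 0.79, with an adjusted p of 0.0873.

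Gmnn was at 9.86, 12.3, 9.77 and 11.98 CPM in KP and at 14.4, 11.7 and 15.9 CPM in KPH2 2 to KPH2 4, with 17.2 CPM in KPH2 1. KPH2 3 lay below KP 6 and KP 8, and the log2 fold change was 0.35 (95% interval −0.11 to 0.80; adjusted p = 0.418 in edgeR). The ratio of Cdt1 to Gmnn per kb, a measure of the loader against its inhibitor at the transcript level, was 0.711, 0.622, 1.31 and 0.645 in KP 5 to KP 8. It was 0.987, 0.985 and 0.818 in KPH2 2 to KPH2 4 and 0.970 in KPH2 1. All 4 KPH2 tumours were thus above 3 of the KP tumours and below KP 7.

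Cdc6 and Mcm10 did not share the direction of the others in the 7 tumours. Cdc6 was at 21.7, 25.0, 16.3 and 19.7 CPM in KP and at 19.4, 18.6 and 19.1 CPM in KPH2 2 to KPH2 4, which lay inside the KP range. In the fit over 7 tumours the log2 fold change was −0.12 (95% interval −0.54 to 0.30; adjusted p = 0.789 in edgeR), and it was −0.022 without KP 6 and −0.22 without KP 7. KPH2 1, at 29.4 CPM, was above all other tumours, and with it the fitted value was 0.065. Mcm10 was at 28.8, 29.4, 21.6 and 23.9 CPM in KP and at 24.6, 20.1 and 30.3 CPM in KPH2 2 to KPH2 4, with a log2 fold change of −0.056 (95% interval −0.51 to 0.40). KPH2 3 was lowest and KPH2 4 highest of the 7 for Mcm10, and KPH2 1 was at 37.9 CPM. Its sign changed in several settings: with KPH2 1 the log2 fold change was 0.12, and without KP 5, KP 6 or KPH2 3 it was 0.0086, 0.0065 and 0.080.

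**Figure D3:**
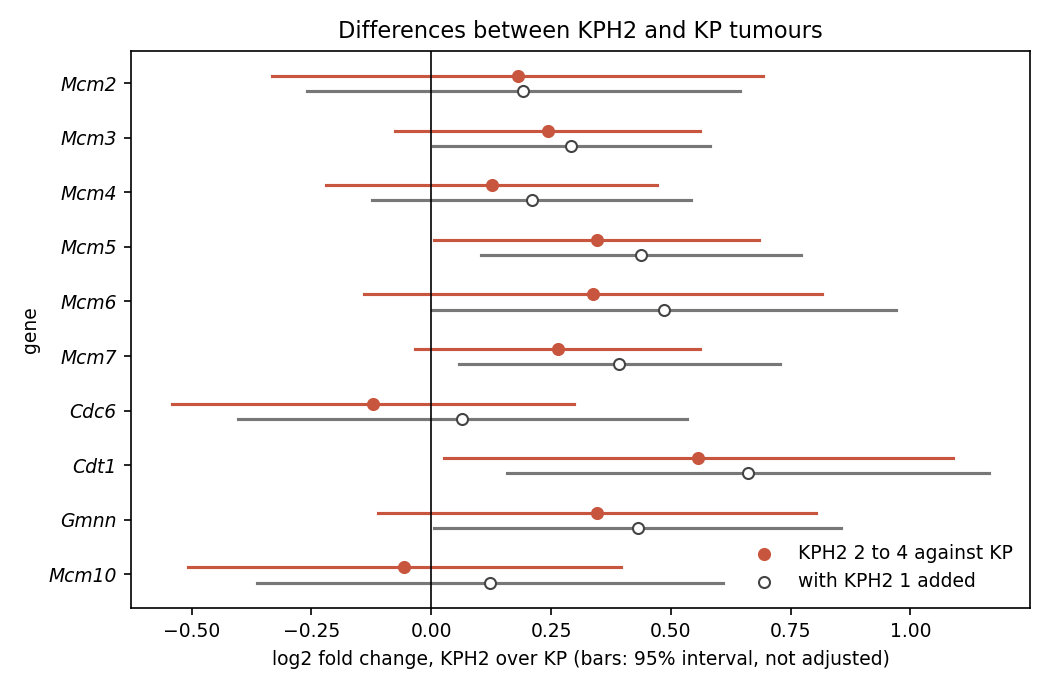
Log2 fold changes of KPH2 over KP from edgeR for each gene, over 7 tumours (filled) and with KPH2 1 added (open), with unadjusted 95% intervals as bars. Over 7 tumours the intervals of Mcm5 and Cdt1 lie above 0, and adding KPH2 1 moves every estimate to a higher value.

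KPH2 1 stood above the other tumours for these genes. It was the highest of all 8 tumours in 9 of 10 genes, against 17.7% of all genes. With it, 10 of 10 genes had a positive log2 fold change, against 50.9% of all genes, the median was 0.34 against 0.0074 for all genes, and 6 of 10 were higher at an unadjusted p under 0.05, against 6.65%. The genes whose groups did not overlap were again Mcm5 and Mcm7, 2 of 10 against 3.76% of all genes. Past the adjusted p there were 0 of 10, and over all 14805 genes tested 1, or 0.00675%. The count without overlap also turned on single tumours among the 7: it was 4 without KP 5 (Mcm3, Mcm5, Mcm6 and Mcm7), 5 without KP 7 (Mcm2, Mcm4, Mcm5, Mcm7 and Cdt1) and 5 without KPH2 3 (Mcm3, Mcm5, Mcm7, Cdt1 and Gmnn). Over all genes the share without overlap was 13% without KP 5, 11.6% without KP 7 and 12.9% without KPH2 3.

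**Figure D4:**
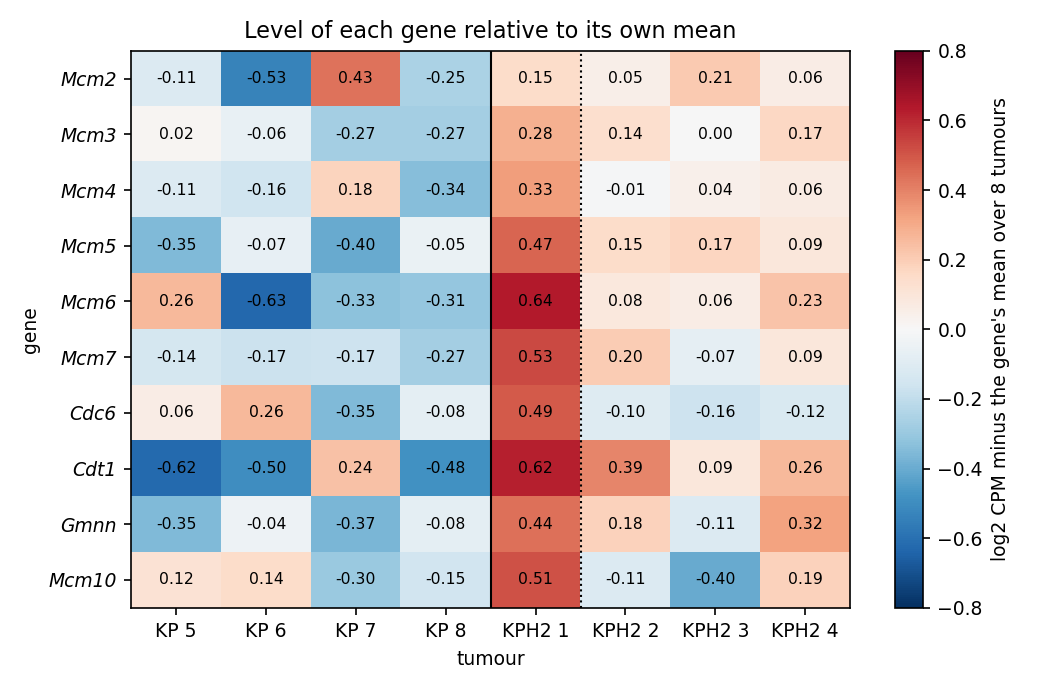
Each cell gives the log2 CPM of a gene in a tumour minus its mean over the 8 tumours, with KP 5 to KP 8 on the left, KPH2 1 after the solid line and KPH2 2 to KPH2 4 after the dotted line. The column of KPH2 1 is above 0 for all 10 genes, from 0.15 for Mcm2 to 0.64 for Mcm6, and KP 7 is above 0 for Mcm2, Mcm4 and Cdt1 and below 0 for the others.

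Summed over Mcm2 to Mcm7, the subunit transcripts were at 498.5, 418, 477 and 418.5 CPM in KP 5 to KP 8 and at 539, 524 and 552 CPM in KPH2 2 to KPH2 4, with 682 CPM in KPH2 1. The sum was 453 ± 41.3 CPM (SD, n = 4) among KP tumours and 538 ± 13.9 CPM (SD, n = 3) in KPH2, and the groups did not overlap. Mki67, which encodes the proliferation marker Ki-67, did not follow it. Mki67 was at 485.5, 447, 299.8 and 317 CPM in KP, at 281, 359 and 259 CPM in KPH2 2 to KPH2 4 and at 419 CPM in KPH2 1, with a log2 fold change of −0.37 (SE 0.22; adjusted p = 0.432 in edgeR). Per unit of Mki67, the summed subunits were 0.934 to 1.59 in KP, 1.46 to 2.13 in KPH2 2 to KPH2 4 and 1.63 in KPH2 1, and the groups overlapped through KP 7 and KPH2 3. Myc, a transcription factor that drives growth, was at 51.1 to 88.2 CPM in KP, at 49.4 to 83.6 CPM in KPH2 2 to KPH2 4 and at 256 CPM in KPH2 1. The tumour with the highest subunit sum was thus also the one with the highest Myc, and the relation was not tested.

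The genes most like the subunits in their course over the 8 tumours were found by the root mean square distance between log2 CPM profiles, each centred on its mean, from the average profile of Mcm2 to Mcm7. Among 14683 candidates the nearest was Usp37, a deubiquitinase gene, at 0.0606, followed by Pdcd11 at 0.0680, Ddx1 at 0.0684, Cpsf3 at 0.0693 and Ahctf1 at 0.0709. The median distance over all candidates was 0.390. The average profile itself had an SD of 0.205 over the 8 tumours, which is the distance of a gene at a constant level. The subunits' own distances from their average ran from 0.0924 for Mcm7 to 0.234 for Mcm2. Mcm2 and Mcm6 (0.215) were thus farther from the average than a constant gene would be. Usp37 was at 72.8 CPM on average in KP, 84.7 CPM in KPH2 2 to KPH2 4 and 101 CPM in KPH2 1. These distances describe 8 libraries and were not tested.

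Of 117 genes tested in 8 lists that act beside these genes in replication and the cell cycle, 1 passed the adjusted p, against 1.96% of all genes. The counts of positive log2 fold changes that follow stand beside 48% over all genes. For 6 of the 117, every tumour of KPH2 2 to KPH2 4 was above every KP tumour, and for 8 every one was below, against 8.73% and 8.15% of all genes. Of the 6 subunits of the origin recognition complex, which marks where rings are loaded, 4 had a positive log2 fold change and 2 a negative one, with a median of 0.15. Orc2 had one of 0.25 and Orc1, the subunit that comes and goes with the cycle, one of −0.34. In helicase activation 2 of 12 genes were positive and 10 negative, with a median of −0.13, and 0 had an unadjusted p under 0.05, against 17.8% of all genes in either direction. With all 8 tumours, 4 of these 12 were positive and the median was −0.076. Among them Gins2, a subunit of the GINS complex, had a log2 fold change of 0.24. Gins3 had one of −0.70, without overlap between KPH2 2 to KPH2 4 and KP. Cdc7, the kinase that phosphorylates the loaded MCM ring, had one of −0.39. KPH2 1 was within the KP range for Gins3 (10.9 CPM) and Cdc7 (37.6 CPM). With KPH2 1 added, the log2 fold change was −0.36 for Gins3 and −0.24 for Cdc7. Past the adjusted p there were 0 genes in each of these lists.

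A list of 5 further genes, the MCM relatives Mcm8, Mcm9 and Mcmdc2 and the MCM-binding proteins Mcmbp and Mcm3ap, had 0 past the adjusted p. Mcm8 had a positive log2 fold change, 0.36, and the other 4 a negative one, with a median of −0.31 over the 5, which was −0.051 with all 8 tumours. A difference from Mcm2 to Mcm7 was not tested. Mcm9, the partner of MCM8 in homologous recombination, was at 15.97 ± 3.14 CPM (SD, n = 4) among KP tumours and 11.5 ± 0.953 CPM (SD, n = 3) in KPH2 2 to KPH2 4, with a log2 fold change of −0.47 (adjusted p = 0.284 in edgeR) and these KPH2 tumours all below KP. KPH2 1 was again apart from KPH2 2 to KPH2 4. It was at 18.6 CPM for Mcm8, where the highest KP tumour was at 9.41 CPM. For Mcm9 it was at 20.5 CPM, near the highest KP tumour at 20.6 CPM. The row 6030422M02Rik, an earlier symbol of Mcmdc2, was at most at 3.83 CPM and had a log2 fold change of −0.95 (adjusted p = 0.292 in edgeR).

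In the machinery that destroys CDT1, 9 of 12 genes were positive, with a median log2 fold change of 0.19. Cul1, the scaffold of the SCF ligase, had one of 0.35 and Ddb1, an adaptor of the CUL4 ligase, one of 0.27. Ddb1 was at 795 ± 41.2 CPM (SD, n = 4) among KP tumours and 956 ± 5.43 CPM (SD, n = 3) in KPH2 2 to KPH2 4, with every KPH2 tumour above every KP tumour and an adjusted p of 0.355 in edgeR. Skp2, which brings CDT1 to the SCF ligase, had a log2 fold change of −0.14 and Rbx1, the RING subunit of both ligases, one of −0.11. For 33 genes of the replication fork, 16 were positive and 17 negative, and 21 were positive with KPH2 1 added. Rnaseh2a, a subunit of ribonuclease H2, was at 0.57 and Rfc3, of the clamp loader, at 0.37 on the log2 scale, whereas Pole4, a small subunit of polymerase epsilon, was at −0.53 (adjusted p = 0.121 in edgeR) and the nuclease gene Dna2 at −0.52. KPH2 2 to KPH2 4 did not overlap KP for Rnaseh2a, Pole4 and Dna2. In the whole fork list, 1 gene was higher and 4 were lower without overlap. KPH2 1 was above every KP tumour for Rnaseh2a, at 24.2 CPM. For Pole4 it was also above every KP tumour, at 36.6 CPM, opposite to KPH2 2 to KPH2 4. For Dna2, at 13.2 CPM, it was within the KP range.

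In nucleotide supply 4 of 10 genes were positive and 6 negative, with a median of −0.10, but with KPH2 1 added 7 of 10 were positive and the median was 0.098. Rrm2, the regulated subunit of ribonucleotide reductase, was at 26.7, 40.2, 25.8 and 29.2 CPM in KP 5 to KP 8 and at 49.4, 47.6 and 53.1 CPM in KPH2 2 to KPH2 4. All 3 were above the KP tumours, while KPH2 1, at 31.9 CPM, was within the KP range. The log2 fold change of Rrm2 was 0.72 (SE 0.19; adjusted p = 0.0926 in edgeR). Dut, which removes dUTP, had one of −0.32, and KPH2 1 was far above the other tumours for it, at 73.8 CPM.

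E2f2 was the gene of these lists that passed the adjusted p. This E2F activator was at 8.30, 13.8, 7.55 and 12.8 CPM in KP 5 to KP 8 and at 20.3, 29.4 and 32.6 CPM in KPH2 2 to KPH2 4. Its log2 fold change was 1.37 (SE 0.27) with an adjusted p of 0.0492 in edgeR. KPH2 1 lay within the KP range at 9.26 CPM, and with it the adjusted p was 0.255. E2f8, a repressor of the family, was at 43.3 ± 9.03 CPM (SD, n = 4) and 66.6 ± 11.6 CPM (SD, n = 3), a log2 fold change of 0.62 (adjusted p = 0.171 in edgeR), with KPH2 1 at 32.2 CPM. E2f1 had a log2 fold change of −0.35 and Tfdp1, the dimer partner, one of −0.11. In this list, 8 of 13 genes were positive, with a median of 0.17. Rrm2, E2f2 and E2f8 thus had KPH2 1 on the KP side, opposite to its place in the licensing genes. Of 26 genes of mitosis and proliferation, 15 were positive, with a median of 0.068 and 0 past the adjusted p. Among these Ube2c was at 0.39 and Nusap1 at 0.37, while Cenpe was at −0.24 on the log2 scale.

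**Figure D5:**
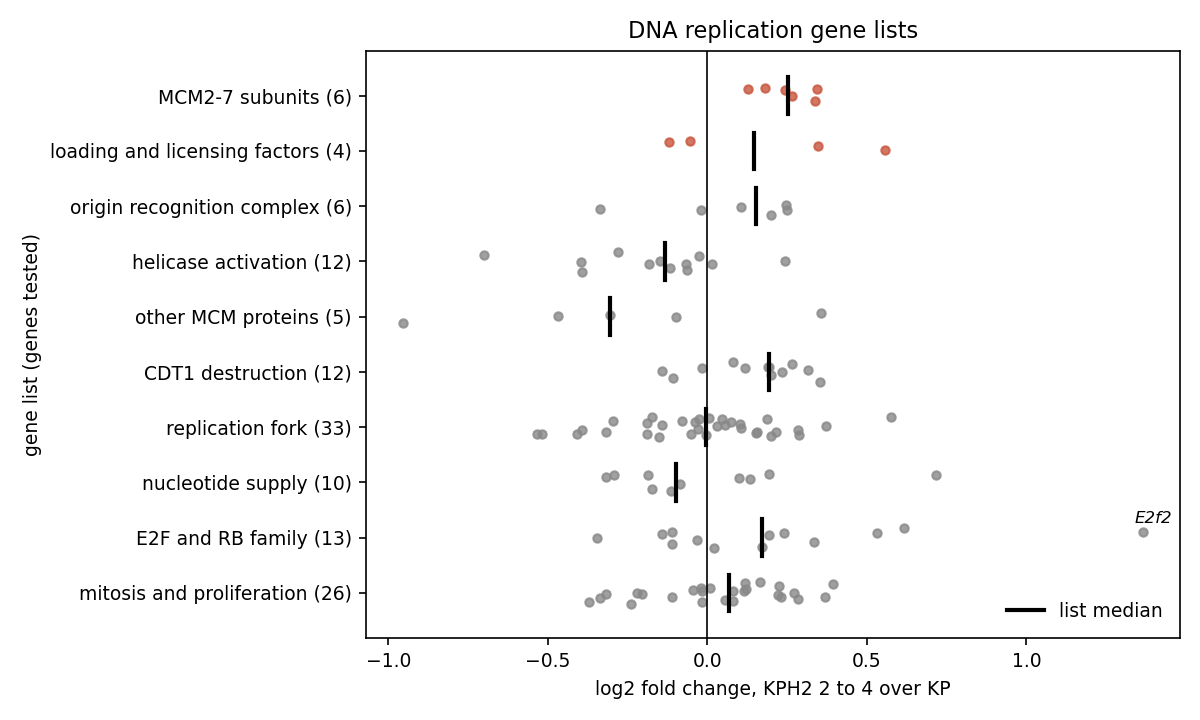
Each point is the log2 fold change of a gene in KPH2 2 to KPH2 4 over KP, by list, with the number tested in brackets, the members in red and the list median as a black bar. The MCM2 to MCM7 subunits lie between 0.13 and 0.34, the other lists lie on both sides of 0, and E2f2 is the gene past the adjusted p.

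Markers of other cells were read in the same tumours, and those of skeletal muscle included genes past the adjusted p. Log2 fold changes were positive for 30 of 30 skeletal muscle markers, their median was 2.25, and 3 were past the adjusted p (0 with all 8 tumours). Their summed level was 1855 to 3367 CPM in KP, 4384 to 19810 CPM in KPH2 2 to KPH2 4 and 1521 CPM in KPH2 1, which was lower than in any KP tumour, and 0 of the 30 were at 0 counts in any tumour. Of 10 macrophage markers, 10 were negative, with a median of −0.55 and 0 past the adjusted p. Their sum was 2271 to 4275 CPM in KP, 1667 to 2521 CPM in KPH2 2 to KPH2 4 and 2189 CPM in KPH2 1. Endothelial markers were negative in 7 of 8, with a median of −0.55, 0 past the adjusted p and sums of 321 to 596, 325 to 334 and 235 CPM. T and NK cell markers had a median of −0.64 over 7 genes tested, with 0 past the adjusted p and sums of 12.6 to 34.9, 14.6 to 26.5 and 7.34 CPM. B and plasma cell markers and adipocyte markers were low, with 2 genes of each tested and 0 past the adjusted p, sums of at most 49 CPM, and Ms4a1, Pax5, Adipoq, Plin1 and Lep at 0 counts in some tumours. The mesenchymal markers of UPS were abundant in every tumour, at a sum of at least 10940 CPM, with 7 of 10 negative and Pdgfra, at a log2 fold change of −2.02, past the adjusted p (0.0183 in edgeR). Pdgfra averaged 995 CPM in KP and 245 CPM in KPH2 2 to KPH2 4, with KPH2 1 at 638 CPM. With KPH2 1 added, its log2 fold change was −1.535 and its adjusted p 0.160 in edgeR.

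With the muscle marker score as a covariate in the fit, the log2 fold changes of the 10 licensing genes ran from −0.19 for Cdc6 to 0.998 for Cdt1, with adjusted p-values of 0.787 to 0.984 in edgeR. Those of Mcm2 to Mcm7 were 0.21 to 0.36. The score was 3.20 to 4.33 (mean log2 CPM) in KP and 4.82 to 7.17 in KPH2 2 to KPH2 4 and did not overlap between these groups. KPH2 1, outside this fit, was at 3.09. With the score, 7 of the 10 estimates were higher and 3 lower than without it, their median was 0.33 in place of 0.25, and their SEs ran from 0.27 to 0.46 in place of 0.13 to 0.23. Since the score did not overlap, muscle content and genotype cannot be told apart in this fit. The part of the macrophage, endothelial and lymphocyte markers in the differences was not tested.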

How the data were processed

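The authors processed reads with CASAVA 1.8.2, STAR 2.4 and HTSeq 0.6.1, per the labels' processing notes, and deposited raw counts per RefSeq gene of GRCm38, with unique alignments counted and no normalization. The authors also deposited log2 values of the regularized log transformation from DESeq2 1.6, for 7 and for 8 tumours. The libraries were stranded and depleted of ribosomal RNA, and RNA from fixed sections is fragmented, so CPM per kb is approximate.

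Counts were fitted over KP 5 to KP 8 and KPH2 2 to KPH2 4 with edgeR 4.0.16 in R 4.3.3 (TMM, minimum count 10, minimum total count 15, robust quasi-likelihood test, no covariate), with Benjamini-Hochberg adjustment over all genes tested and a threshold of 0.05. A knockout tumour that the study excluded on technical grounds was taken to be KPH2 1, and was left out of this fit. Levels are CPM scaled by TMM over 8 tumours, log2 values use a prior count of 2, and single genes were also tested by 2-sided exact permutation. Nothing in the labels says that tumours were paired, and p-values measure the spread between tumours with 1 library each. Exon lengths are unions of exons of GENCODE M21 transcripts with a RefSeq accession, and positions and promoters are RefSeq's. The scripts were tested on simulated data for the 7 tumours. Of 100 genes given a log2 change of 1, edgeR recovered 20 past the adjusted p and DESeq2 46. Of 99 given a change of 2, edgeR recovered 72 and DESeq2 86. False calls among the unchanged genes were 8 with edgeR and 50 with DESeq2. Smaller changes, such as those fitted for the members, were not simulated.

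The members and lists were chosen with earlier results of these data known. Named genes are all members, Epas1, Mki67, Myc, up to 2 genes per list and direction with the smallest p, and the 5 nearest profiles. Genes that neighbour a member, Rn45s and markers were named after their values were seen. Hrob was not matched in the counts and not analysed here. Alternatives were all 8 tumours, other normalizations, filters and tools (DESeq2 1.42.0, limma 3.58.1 on the deposited log2 values), leaving out each tumour, and a muscle covariate. Leaving out Rn45s and Lars2 was added after seeing the data. An allele that all the mice share is not reported here.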

Additional observations from a re-analysis of the deposited data

Results flagged for a closer look

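In each group of 4 tumours, the gap between the extreme tumour and its nearest neighbour was set against the whole range of the group and compared with Dixon's critical value. Of 22 combinations examined, the 10 genes and the sum of Mcm2 to Mcm7 in each group, 2 exceeded it. For Cdc6 in KPH2 the ratio was 0.923, since KPH2 1 was at 29.4 CPM and the other KPH2 tumours at 18.6 to 19.4 CPM. For Cdt1 in KP it was 0.876, since KP 7 was at 29.0 CPM and the other KP tumours at 15.9 to 17.6 CPM. Chance alone exceeds this value in about 1 of 20 groups.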

How the results depend on the processing

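For the fitted log2 fold changes of the 10 genes over 16 alternative settings, 154 of 160 values kept their direction, 6 reversed, and 0 passed the adjusted p. The reversals were Cdc6 (0.065) and Mcm10 (0.12) with all 8 tumours, Mcm10 (0.28) with the muscle covariate, and Mcm10 when KP 5, KP 6 or KPH2 3 was left out, over a range of −0.21 to 0.080 for leaving out any tumour. In log2 CPM, Cdc6 (0.053) and Mcm10 (0.093) reversed with all 8 tumours, and Mcm5 (0.44) reached an exact permutation p of 0.0286. The median of the 10 genes moved to 0.34 with all 8 tumours and 0.17 with limma on the deposited log2 values. The count without overlap was 2 to 5 of 10 when a tumour was left out, against 11 to 13% of all genes. The number of genes past the adjusted p, 292 of all tested, was the least stable: 1 with all 8 tumours, 349 without KP 5, 55 to 159 without any other of the 7 tumours (55 without KPH2 2), 1179 with DESeq2 and 3 with the muscle covariate. With fewer tumours the fit also has fewer samples. No other cause was tested. Depth limits the lowest genes most: the counting error at the lowest count of each gene was 3.71% (Mcm4) to 12.3% (Gmnn). No paired analysis was made, because KP and KPH2 tumours came from different mice and the labels name no pairs.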
